A study of Mus musculus with 2 samples.

Results

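The endothelial cells of the E9.5 mouse mandibular arch were 371 of 12744 cells kept from the arch library (2.91%, exact 95% binomial interval 2.63 to 3.22) and 371 of 24099 kept from the whole study. They were chosen by their raw counts of unique molecular identifiers (UMIs, each standing for a captured transcript): at least 3 UMIs summed over Cdh5, Pecam1 and Emcn, and none of Epcam. Cdh5 encodes the VE-cadherin of endothelial junctions, Pecam1 the adhesion molecule CD31, Emcn the sialomucin endomucin and Epcam an epithelial adhesion molecule. The cells they are set against below are the 11521 kept cells without a UMI of Cdh5, Pecam1 or Emcn.

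The study sequenced mandibular cells of K14Cre;R26mT/mG mouse embryos, which carry an epithelial Cre driver and a membrane Tomato to membrane GFP reporter. At E9.5, whole mandibular arches of 8 embryos of 1 litter were pooled and dissociated without sorting, so mesenchyme, epithelium, mesoderm and vessels shared 1 library. At E12.0, epithelium of 6 pooled embryos was peeled from the mesenchyme and sorted for GFP, and 0 of its 11355 kept cells met the rule. There was 1 library per stage, so the embryos are not told apart, cells are not replicates, and no test between groups of cells was made. Genes are instead counted by size, and every 95% interval covers counting error only, not the variation between cells or embryos.

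The endothelium lines vessels. In the early embryo it arises from mesodermal progenitors that switch on the VEGF receptor gene Kdr and the ETS factor gene Etv2, and the resulting plexus is then remodelled into arteries and veins. VEGF and Notch signals favour arterial fate, and the nuclear receptor Nr2f2 favours venous fate. In the pharyngeal arches the endothelium forms the arch arteries and the small vessels around them.

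The library held 14293 barcodes and 208540526 UMIs. Endothelial cells had a median of 14566 UMIs (range 1354 to 31157), 4001 genes and 1.75% mitochondrial UMIs, and the comparison cells had a median of 13230 UMIs. Doublet calls were about as frequent in both, at 2.43% and 2.35%. Of the 371 cells, 190 held all 3 rule genes, 103 held 2 and 78 held 1, and the sum ranged from 3 to 57 with a median of 10. Another 67 kept cells reached the sum but held Epcam, 53 of them by exactly 1 UMI, and 23.9% of the 67 were called doublets. No barcode of an endothelial cell recurred among the 51 that the libraries shared.

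The label could be checked on genes that the rule did not read, within the limit that they come from the same cells. Kdr, the main VEGF receptor (chr5:75932827-75978458, minus strand, GRCm38), had a median of 5 UMIs per endothelial cell, with quartiles of 3 and 7, a lowest of 0 and a highest of 26. It was missing from 20 of the 371 cells. With 4000 UMIs drawn from each cell, possible for 361 endothelial cells, Kdr was found in 72.9% of those and in 1.38% of comparison cells. Cldn5, a tight junction claudin, was found in 72.3% against 0.679%. In the other direction, 56 comparison cells had at least 3 Kdr UMIs, but only 1 of those also had at least 3 of Cldn5.

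The rule's threshold fell on a steep part of these profiles. Among cells without Epcam, Kdr stood at 157 counts per 1000000 UMIs (CPM) in the 58 cells with a sum of 2, just outside the rule, and at 336 CPM in the 41 cells with a sum of 3, just inside. Twist1, a mesenchymal transcription factor gene, stood at 453 CPM outside and 152 CPM inside, and at 35.3 CPM in the 49 cells with a sum of 21 or more. The cells nearest the threshold thus had higher levels of this gene than those far above it. Doublet calls were 1.72% at a sum of 2 and 0% at 3, and their part in these levels was not tested.

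**Figure D1:**
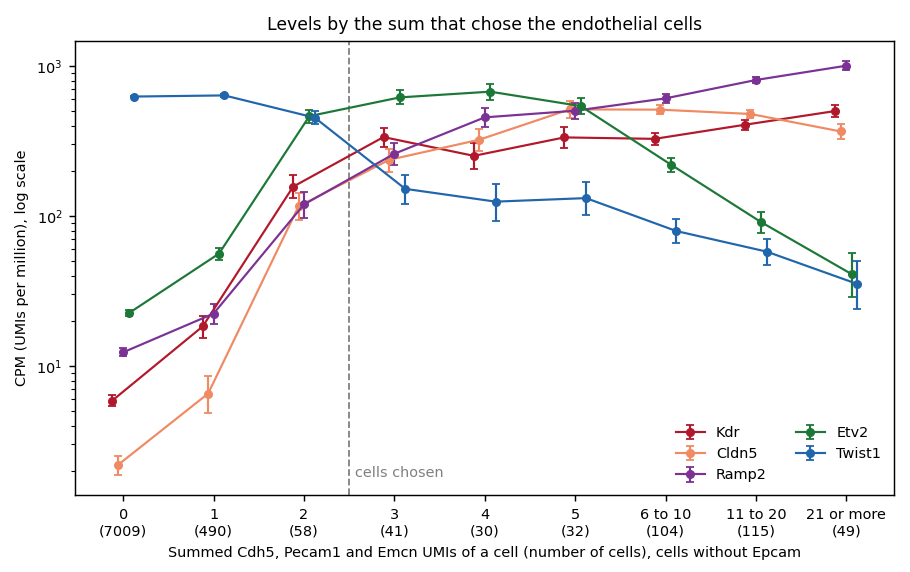
Levels of 5 genes (CPM, log scale, with exact 95% Poisson intervals) by the summed UMIs of Cdh5, Pecam1 and Emcn in cells without Epcam. Kdr, Cldn5 and Ramp2 are higher at a sum of 3 than at 0, Twist1 goes from 626 CPM at 0 to 35.3 at 21 or more, and Etv2 is highest at a sum of 4 (675 CPM) and lowest inside the rule at 21 or more (41.0 CPM).

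Across 22328 genes with a UMI in the kept cells, 1606 (7.19%) were higher in endothelial cells, which here means that the CPM plus 5 were at least 1.3 times those of comparison cells and that 15% or more of endothelial cells held a UMI. By the mirrored criteria, in the comparison cells, 1491 genes (6.68%) were lower. At a ratio of 4 or more, 249 genes (1.12%) were higher and 68 (0.305%) lower. The median log2 ratio of all genes was -0.01. With cells thinned to 4000 UMIs, 872 genes were higher and 818 lower. The same cells gave the choice and the contrast, so these values describe the chosen cells. The rule genes themselves, at 215 CPM for Cdh5, 98.9 for Pecam1 and 452 for Emcn, hold no information beyond it.

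**Figure D2:**
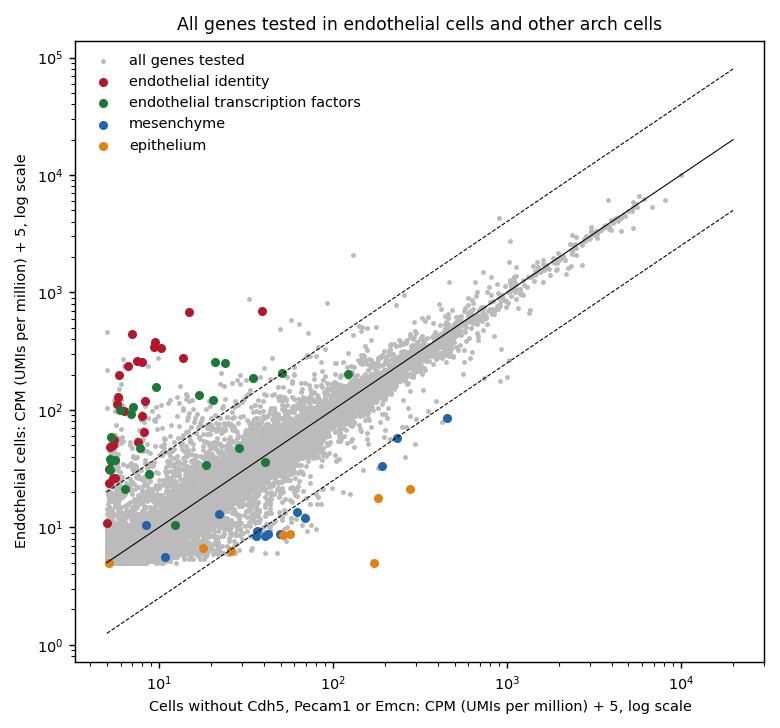
Each point is a gene, with its level in the 371 endothelial cells (vertical) against the 11521 cells without Cdh5, Pecam1 or Emcn (horizontal), both as CPM plus 5 on log scales; the solid line marks equal levels and the dashed lines a ratio of 4. Endothelial identity genes lie above the upper dashed line with the exception of Robo4, and 9 of 13 mesenchyme genes and 6 of 8 epithelium genes lie below the lower one by the criteria in the text.

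Genes of general endothelial identity were higher as a block. Of 26 genes on this list, 25 were at least 4-fold higher, with a median log2 ratio of 4.06, and Robo4, found in 8.36% of the cells, missed the share of 15%. Cldn5 reached 437 CPM (95% interval 420 to 455) against 1.96 (1.74 to 2.20), a log2 ratio of 5.99. Ramp2, the partner of the adrenomedullin receptor, reached 679 CPM against 9.85. Egfl7, a secreted vessel protein, reached 693 CPM against 33.9, the highest comparison level among these examples. Set against mesenchymal, epithelial and mesodermal core cells in turn, the same 25 genes were at least 4-fold higher than in each of the 3 classes. The share of all genes that do so is not given here. Against mesenchymal cells alone, 291 of all genes were at least 4-fold higher by the criteria above.

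The regions before the transcription starts of these genes are shown because the ETS factors, among them Etv2, Fli1 and Erg, are known for binding a GGAA core near vascular genes. RefSeq windows of the 250 bases before a start (GRCm38.p6) were found for 15 of the 26 identity genes, in 18 windows. The motif letters searched were CAGGAAG and CCGGAAG, on both strands, so that CTTCCTG and CTTCCGG count too. They were in 8 of the 18 windows (44.4%), in 4 of 21 windows of 14 of the 23 endothelial transcription factor genes (19.0%), and in 5585 of all 32851 windows (17.0%). A GATA motif (AGATAA) was in 0 of the 18 and in 9.99% of all windows, a SOX motif (ACAATG) in 1 and in 10.7%, and a KLF motif (CCACACC) in 2 and in 6.52%. These are letter matches and not sites of binding. The windows of Kdr and Cldn5 held no ETS match, and 3 windows that did, from genes with high endothelial levels, read as follows on the plus strand, with the matches in capitals.
Egfl7 (chr2:26580833-26581082): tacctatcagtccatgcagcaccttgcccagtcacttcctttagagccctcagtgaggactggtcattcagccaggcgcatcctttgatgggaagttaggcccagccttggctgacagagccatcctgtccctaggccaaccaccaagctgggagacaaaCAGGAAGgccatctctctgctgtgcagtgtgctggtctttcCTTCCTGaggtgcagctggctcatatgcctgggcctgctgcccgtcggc
Rasip1 (chr7:45627287-45627536): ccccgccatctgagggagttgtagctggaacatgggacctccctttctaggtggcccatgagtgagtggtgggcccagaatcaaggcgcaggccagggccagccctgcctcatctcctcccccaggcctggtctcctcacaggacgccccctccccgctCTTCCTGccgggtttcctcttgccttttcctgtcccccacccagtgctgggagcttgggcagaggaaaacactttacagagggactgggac
Cd34 (chr1:194938571-194938820): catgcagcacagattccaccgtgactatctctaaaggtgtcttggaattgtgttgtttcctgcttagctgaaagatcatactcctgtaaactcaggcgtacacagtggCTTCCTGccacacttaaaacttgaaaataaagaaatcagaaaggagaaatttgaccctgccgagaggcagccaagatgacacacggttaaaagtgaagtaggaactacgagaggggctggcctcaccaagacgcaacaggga
The match nearest to the start ended 43 bases before it in Egfl7, 85 in Rasip1 and 136 in Cd34. Rasip1, a small GTPase effector needed for vessel lumens, stood at 256 CPM in endothelial cells against 2.495, and Cd34, a surface sialomucin, at 252 against 2.95.

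Among receptors for the VEGF family, all 5 genes of the list were higher, 4 of them at least 4-fold. Kdr stood at 376 CPM (360 to 392) against 4.47 (4.14 to 4.83), and Flt1, which encodes a high-affinity receptor that also acts as a decoy, at 331 against 5.21. Flt4, the receptor for VEGF-C, stood at 120 CPM against 1.01. The co-receptor gene Nrp1 stood at 117 against 10.5 CPM. Nrp2 was higher by a log2 ratio of 1.54 and was the exception among classes: at 166 CPM it exceeded mesenchymal cells (34.6) but lay below mesodermal core cells (277; interval 264 to 290).

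The ligand genes for these receptors varied by class. Of 5 VEGF ligand genes, Vegfc was higher (25.3 against 9.10 CPM, with 28.2 in mesodermal core cells), Vegfa and Vegfb were lower, and Pgf and Vegfd passed neither criterion. Vegfa stood at 6.69 CPM (4.71 to 9.22) in endothelial cells, 12.6 in mesenchymal, 14.9 in mesodermal core and 23.1 (21.7 to 24.6) in epithelial cells. Pgf, the placental growth factor gene, stood at 5.06 CPM in endothelial cells and at 156 (146 to 166) in mesodermal core cells. Among these 4 classes, Kdr, Flt1, Flt4 and Nrp1 were thus highest in endothelial cells, Vegfa in epithelial cells and Pgf in the mesodermal core, while the Vegfc levels of endothelial and mesodermal core cells differed by less than the counting error.

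In the Tie receptor system the receptor genes were high and the gene of the main ligand was low. Tek, the angiopoietin receptor gene, stood at 92.5 CPM against 1.26, Tie1 at 45.4 against 0.45 and the phosphatase gene Ptprb at 43.4 against 0.23. Angpt1, the main activating ligand, had only 3 UMIs in all endothelial cells (0.54 CPM, 0.11 to 1.58), and stood at 13.5 CPM (12.4 to 14.6) in epithelial and 10.8 in mesodermal core cells. In mesenchymal cells Angpt1 stood at 3.03 CPM, and against all comparison cells it passed neither criterion. Angpt2, at 3.79 against 3.44 CPM, passed neither criterion either. Other ligand genes varied by class. Pdgfa stood at 62.0 CPM in endothelial cells, 531 in epithelial, 141 in mesodermal core and 17.0 in mesenchymal cells. Edn1, the endothelin-1 gene, stood at 15.7, 79.1, 84.1 and 4.58 in the same order. Both were therefore lower against all comparison cells and higher against mesenchymal cells alone. Pdgfb, the signal that recruits pericytes, was higher at 18.8 CPM against 0.25.

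**Figure D3:**
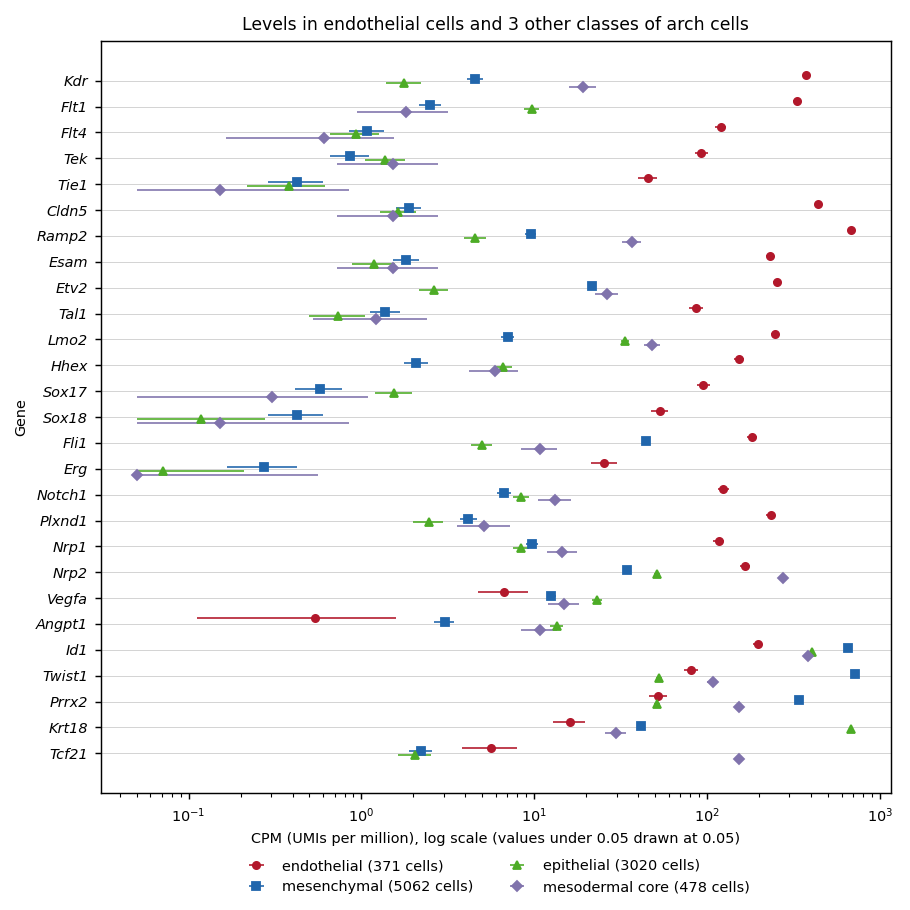
Levels of 27 genes (CPM, log scale, with exact 95% Poisson intervals) in 371 endothelial, 5062 mesenchymal, 3020 epithelial and 478 mesodermal core cells; Twist1 and Prrx2 helped to choose the mesenchymal class and Tcf21 the mesodermal core. Kdr to Esam lie far to the right in endothelial cells, Vegfa and Angpt1 lie to the left of the other 3 classes, and Nrp2 is highest in the mesodermal core.

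Transcription factors of the endothelium were led by Etv2, Lmo2 and Ets1. Of 23 genes, 21 were higher and 16 at least 4-fold higher, with a median log2 ratio of 2.62, and Klf4 and Foxc1 passed neither criterion. Etv2, the ETS factor of early vascular progenitors, stood at 252 CPM against 15.9, and Ets1 at 200 against 46.1. Lmo2 and Tal1, partners in a complex used by blood and vessel progenitors, stood at 248 against 19.1 and 86.7 against 1.90. The SOXF genes Sox17, Sox18 and Sox7 stood at 95.1, 53.3 and 33.4 CPM against 0.96, 0.31 and 0.20. Hhex, a homeobox gene of early endothelium, stood at 153 CPM against 4.66, and Foxc2, a forkhead gene, at 42.6 against 2.73. Fli1 was not limited to endothelium: its 183 CPM compare with 44.4 in mesenchymal cells and 4.96 in epithelial cells. Against the 3 classes in turn, 13 of the 23 genes were at least 4-fold higher than in every class. As for the identity genes, the share of all genes that do so is not given here.

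Genes of neighbouring blood lineages gave a different picture. The haemogenic list had 1 of 10 genes higher, beside 7.19% of all genes. This was the receptor gene Kit (21.5 against 10.2 CPM), which was higher still in epithelial cells (28.5 CPM). Runx1 had 6 UMIs, and Gfi1, Gfi1b and Ptprc had 0 among 5533442, which allows up to 0.54 CPM. Of 10 macrophage genes, 8 were at 0, among them Csf1r, the C1q genes and Adgre1, and 31 of the list's 36 UMIs were of Mrc1. Of 5 megakaryocyte genes, 3 were at 0 and Pf4 had 5 UMIs. The remaining gene, Itga2b, went the other way and was found in 21 of the 371 cells. Itga2b stood at 4.34 CPM, against 0.23 in mesenchymal, 0.26 in epithelial and 0 in mesodermal core cells. Against all comparison cells, all 5 genes passed neither criterion. Clec1b, a receptor gene also known from platelets, was nevertheless the most strongly higher gene outside the lists, at 267 CPM against 1.23. Haemoglobin genes made up 0.0486% of endothelial UMIs and 0.229% of comparison UMIs, and without the cells in which they exceeded 1%, 1 endothelial and 79 comparison cells, the shares were 0.0138% and 0.0157%. Hbb-y, an embryonic globin gene, was found at thinned depth in 20.2% of endothelial cells, 24.7% of mesenchymal and 25.8% of epithelial cells. Its UMIs in endothelial cells are not read as expression, and their source was not tested.

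Genes of mesenchyme and epithelium were low, and those of the other arch tissues mostly passed neither criterion. Of 13 mesenchyme genes, 10 were lower and 9 at least 4-fold lower, with Twist1 at 80.8 CPM against 447 and Prrx1 at 28.2 against 187. Of 8 epithelium genes, 6 were at least 4-fold lower, with Epcam, which the rule set to 0, among them and the keratin gene Krt18 at 16.1 against 271. Of 5 mesodermal core genes none was lower and 1 was higher, Tbx1, a T-box gene of pharyngeal mesoderm, at 44.5 against 25.6 CPM. Tbx1 stood at 304 CPM (291 to 318) in mesodermal core cells and 8.35 in mesenchymal cells, so endothelial cells lay between. Of 3 neural crest genes, Sox10 was lower, at 3.43 against 18.1 CPM, and of 5 endoderm genes 1 was lower. The pericyte genes Pdgfrb and Notch3 were lower. Tagln was higher by a log2 ratio of 0.63 but rested on few cells: 59 of its 219 UMIs came from 1 cell and 9 cells had 3 or more. With a rule sum of at least 5 the log2 ratio of Tagln was -0.10.

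Against all comparison cells, the matrix list was among the most uniform. Of 16 basement membrane and matrix genes, 14 were higher, 6 at least 4-fold. Lama5 was lower, though not against mesenchymal cells alone (4.88 against 3.67 CPM). Other genes depended on the class too. Col18a1 was lower than in epithelial cells (257 against 347 CPM). Lamc1 (52.0 against 57.6) and Nid2 (30.2 against 27.7) differed from epithelial cells by less than the counting error. Sparc, which encodes a collagen-binding protein, stood at 815 CPM against 87.0, and Fn1, the fibronectin gene, at 432 against 126. The type IV collagen genes Col4a1 and Col4a2 stood at 285 and 186 CPM against 68.6 and 49.6. Nid1, a linker of laminin and collagen networks, stood at 154 against 18.6 CPM. Hapln1, a hyaluronan link protein gene of the endocardial list, reached 487 CPM against 44.8, while the endocardial factor genes Gata4, Gata5 and Tbx20 had 3, 2 and 2 UMIs. Of 8 genes on that list 4 were higher, Hapln1, Npr3, Gata6 and Nfatc1.

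Signalling and guidance lists were mixed. The Notch list of 13 genes had 6 higher, namely Notch1 (124 against 7.68 CPM), Notch4, Dll4, Hey1, Hes1 and Nrarp, and 2 lower, Notch3 and the ligand gene Jag1. Of 10 guidance receptor genes 6 were higher, led by Plxnd1, the receptor for semaphorin 3E, at 233 CPM against 3.60. Of 12 genes of BMP and TGF-beta signalling, the receptor genes Eng, Acvrl1, Tgfbr2 and Bmpr2 were higher. The BMP target genes Id1, Id2 and Id3 were lower, at 196, 66.7 and 421 CPM against 555, 245 and 676. These receptor genes and the Id genes therefore lay on opposite sides, and the other 5 genes of the list passed neither criterion. In the list of adhesion and caveolae 6 of 14 genes were higher. For lipid and glucose handling 1 of 8 was, the glucose transporter gene Slc2a1 (248 against 165 CPM), while Slc2a3 was lower. Both depended on the class. Slc2a1 was higher in epithelial cells, at 357 CPM. Slc2a3, at 51.5 CPM, lay below epithelial cells (568) but above mesenchymal cells (31.0).

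Cell cycle genes did not set the endothelial cells apart by these criteria. Of 12 S phase genes none was higher and 2, Mcm4 and Mcm7, were lower. Of 12 G2 and M phase genes, Cdk1 was higher (279 against 185 CPM) and Cenpf lower (306 against 467). The proliferation marker Mki67 stood at 281 CPM against 278, a log2 ratio of 0.01 with intervals that overlap.

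Outside the lists, the 20 highest ratios belonged to Clec1b, Ctla2a, Vamp5, D030007L05Rik, Apoe, Gimap6, Tmem255a, Rasgrp3, She, Lcp1, Vim, Gngt2, Exoc3l4, Tgfb1, Klhl6, Stab1, Dysf, Atf3, Plk2 and Dusp2. Vim, the intermediate filament gene vimentin, was the most abundant at 2092 CPM (2054 to 2130), with a median of 28 UMIs per endothelial cell. Vimentin is also a classical mesenchymal marker, yet mesenchymal cells stood at 159 CPM (156 to 162). Apoe, which encodes a lipid carrier protein, stood at 882 CPM against 27.8, and Tgfb1, a growth factor gene, at 103 against 2.18. The 10 lowest ratios belonged to Vgll2, Sox2, Pitx1, Frem2, Fermt1, Wfdc2, Npnt, Dsp, Meis2 and Crabp2. Several of these are known from epithelium, such as the desmosome gene Dsp, at 3.43 against 44.1 CPM.

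The endothelial cells were not alike in their arterial and venous genes. The arterial list had 8 of 15 genes higher than in comparison cells and the venous and lymphatic list 4 of 8, but these figures average over cells. Per cell, the gap junction gene Gja4 was found in 63 of 371 cells and reached 20 UMIs in the highest. Gja5, another arterial connexin gene, was found in 32 cells and reached 13 UMIs. Nr2f2, the venous regulator, was found in 243 cells with a median of 1 and a highest of 11, and its level of 114 CPM differed little from 113 in mesenchymal cells. Lyve1, a lymphatic marker, had 1 UMI, and Prox1, the lymphatic regulator, 54.

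Arterial genes other than Sox17 tended to share cells. In the 361 thinned cells, the share of cells with both of a pair of genes was divided by the product of the separate shares, so that 1 stands for detection without relation. Among 21 arterial pairs the median ratio was 2.44, with 14 intervals above 1 and 0 below. The 7 pairs with intervals that span 1 included all 6 pairs with Sox17, whose ratios ran from 0.64 to 1.28, and Cxcr4, found in 0.277% of these cells, fell under the detection minimum of 5% and is in no pair counted here. Gja4 and Gja5 had the highest, 6.88 (3.96 to 11.01), from 16 joint cells, and Gja4 and Dll4, a Notch ligand gene, had 4.15 (2.44 to 6.55). Among 35 arterial and venous pairs the median was 0.82, with 0 intervals above 1 and 8 below. Gja4 and Nr2f2 had 0.39 (0.13 to 0.90), and no cell held both Gja5 and Nrp2, which allows a ratio of up to 0.33 (3 cells). All 10 venous pairs had intervals that span 1, with a median of 1.14. Taken as sets, Gja4, Gja5, Dll4 and Hey1 against Nr2f2, Flt4 and Aplnr gave 0.79 (0.59 to 1.03), an interval that holds 1, and at full depth 0.95 (0.84 to 1.07). Fewer joint cells than the product of the shares were thus seen for some pairs, and the sets gave no such value beyond counting error.

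To describe the ends of this range, cells with at least 2 UMIs of Gja4, Gja5, Dll4 and Hey1 and none of Nr2f2, Flt4 and Aplnr were called arterial-side, and the reverse venous-side. There were 28 arterial-side cells (7.55%) and 151 venous-side cells (40.7%), while 91 reached 2 UMIs of both sets and 32 of neither. These are ranges of a count and not cell types, and they differed in depth, with medians of 10357.5 UMIs on the arterial side and 15259 on the venous side. They also differed in the genes of the rule, given here as description: Emcn stood at 991 against 334 CPM, Cdh5 at 490 against 124 and Pecam1 at 325 against 45.6. The sides therefore cannot be told apart from the rule sum. Only genes that did not choose the sides are compared below.

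Other arterial genes followed the arterial side. Of the 11 genes of the arterial list not used in the choice, 8 had an interval of the ratio above 1 and 0 below. Efnb2, the arterial ephrin ligand gene, stood at 247 CPM (194 to 310) against 34.5 (27.5 to 42.7), though over all endothelial cells it passed neither criterion (73.9 against 76.0 CPM). Unc5b, a netrin receptor gene, behaved likewise, with 81.2 CPM (52.0 to 121) on the arterial side and 7.40 (4.38 to 11.7) on the venous side. The other 3 had intervals that hold 1: Sox17 stood at 105 (71.3 to 149) against 79.3 (68.5 to 91.3), Cxcr4 had 2 and 3 UMIs, and Jag2, a Notch ligand gene, had 1 and 13. On the venous list, Nrp2 stood at 33.8 CPM (16.2 to 62.2) against 200 (183 to 219), while Ephb4, the receptor gene for ephrin B2, stood at 30.4 (13.9 to 57.8) against 32.5 (25.7 to 40.5). Among all 7503 genes with 30 UMIs in these cells, 1066 intervals lay above a ratio of 1 and 758 below. The list counts had no such minimum, and Bmx, with 3 and 0 UMIs, is among the 8 arterial genes.

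**Figure D4:**
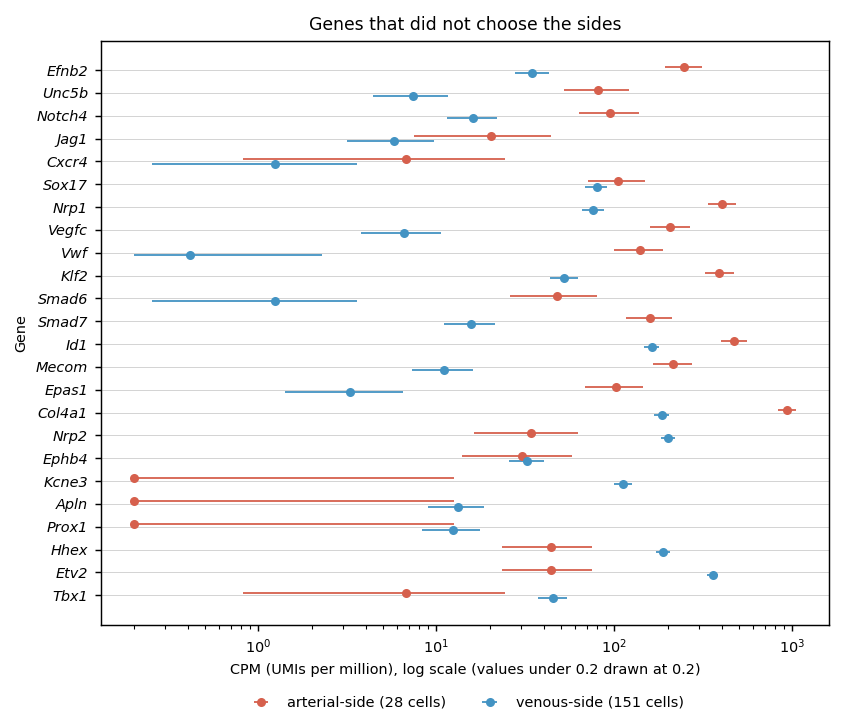
Levels of 24 genes that did not choose the sides (CPM, log scale, with exact 95% Poisson intervals) in 28 arterial-side and 151 venous-side endothelial cells. Efnb2 to Col4a1 lie to the right on the arterial side except for overlapping intervals at Cxcr4, Jag1 and Sox17, and Nrp2, Kcne3, Hhex, Etv2 and Tbx1 lie to the right on the venous side.

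The arterial side also carried most flow-responsive, BMP-pathway and matrix genes of the lists at higher levels. Of the 6 flow-responsive genes 4 had intervals above 1 and 0 below. Klf2, a transcription factor gene known for its response to flow, stood at 389 CPM (321 to 467) against 52.2 (43.5 to 62.1), and Nos3, the endothelial nitric oxide synthase gene, at 101 against 19.7. Of the 12 genes of the BMP list 8 had intervals above 1, including the inhibitory Smad genes Smad6 (47.4 against 1.23) and Smad7 (159 against 15.6) and the target genes Id1 (470 against 162) and Id3 (984 against 298). The Id genes were low in endothelial cells as a whole, and on the arterial side Id1 lay below the 652 CPM of mesenchymal cells while Id3 lay above their 744 CPM. Of 16 matrix genes 12 had intervals above 1, with Col4a1 at 934 CPM against 185. Vegfc stood at 206 against 6.58 CPM and Vwf, the von Willebrand factor gene, at 139 against 0.41, where the venous level rests on 1 UMI. Mecom and Epas1, transcription factor genes, stood at 213 and 101 CPM against 11.1 and 3.29.

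General endothelial genes differed too, so the sides were not separated by arterial and venous genes alone. Of 26 identity genes 23 had intervals above 1 on the arterial side and 1 below, Cldn5, at 183 against 452 CPM. Plvap, a gene of endothelial fenestrae, stood at 907 against 148 CPM. The venous side was higher in Hhex (188 against 44.0 CPM), Tbx1 (45.2 against 6.77) and Etv2 (356 against 44.0). The arterial-side level of Etv2 came from 13 UMIs of 1 cell, and the other 27 cells held none. Kcne3, a potassium channel subunit gene, stood at 112 CPM on the venous side and had 0 UMIs on the arterial side, which allows up to 10.1 CPM there (3 counts). Of the largest differences outside the lists, chosen after their values were seen, Stmn2 had 122 UMIs in 28 arterial-side cells and 1 in 151 venous-side cells, and Cdkn1c, a cell cycle inhibitor gene, stood at 2713 against 127 CPM. G2 and M phase genes had 3 of 12 intervals above 1 and 0 below, and S phase genes 1 of 12 above and 3 below. Mki67 stood at 359 CPM (294 to 434) against 280 (259 to 302), though it was found in 64.3% of arterial-side and 88.7% of venous-side cells, which were the deeper. Some markers of other tissues differed between the sides as well, and their part in these differences was not tested. Beside them stand 1066 intervals above 1 and 758 below among the 7503 genes with 30 UMIs. Of 13 mesenchyme genes 3 had intervals below 1 on the arterial side, Twist1 (64.3 against 111 CPM), Prrx1 (10.1 against 39.5) and Prrx2 (23.7 against 74.8), and 1 above, Hand2 (57.5 against 3.70). Of 8 pericyte genes, Tagln (176 against 20.96) and Acta2 (40.6 against 12.7) had intervals above 1, as did the endoderm-list gene Nkx2-3 (64.3 against 1.23) and the macrophage-list gene Mrc1 (20.3 against 2.88). Of 12 erythroid genes 3 had intervals below 1 on the arterial side and 0 above. Without the 1 cell over 1% haemoglobin, a venous-side cell, haemoglobin shares of UMIs were 0.0122% on the arterial side and 0.0137% on the venous side.

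Etv2 varied widely between endothelial cells. Its quartiles were 0, 1 and 4 UMIs and its highest value 72. Among cells without Epcam it stood at 22.5 CPM at a rule sum of 0, 464 at 2 and 675 at 4, and then at 220 at 6 to 10, 90.9 at 11 to 20 and 41.0 at 21 or more. At thinned depth the share of cells with Etv2 followed the same course, from 6.17% at a sum of 0 through 74.2% at 5 to 10.2% at 21 or more. Kdr, by contrast, stood at 502 CPM at 21 or more. The levels of Etv2 were thus highest near the lower edge of the rule, and the 58 cells with a sum of 2 that it left out held Etv2 too.

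After these values were seen, the cells were split by Etv2: 123 had at least 3 UMIs (median depth 15979, median rule sum 6), 81 had 1 or 2, and 167 had none (12691 and 13). The split cannot be told apart from the rule sum, which differed between the sets, so the rule genes Cdh5 (85.8 against 342 CPM) and Pecam1 (23.7 against 171) are given as description. Of 23 endothelial transcription factor genes 5 had intervals above 1 and 12 below, with a median log2 ratio of -0.37. The 5 were Etv2, which chose the sets, Tal1, Lmo2, Hhex and Fli1 (205 against 169 CPM). With Etv2, Tal1 stood at 157 CPM (141 to 175) against 34.6 (27.2 to 43.3), Lmo2 at 390 against 154, and Hhex at 245 against 82.8. The growth factor gene Pdgfa stood at 114 against 24.1 and, outside the lists, the matrix metalloproteinase gene Mmp9 at 45.04 against 3.18 and the stress-response gene Gadd45g at 246 against 49.1.

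Most arterial, flow-responsive and identity genes of the lists were lower in the Etv2-rich cells. Of the 6 flow-responsive genes 0 had intervals above 1 and 4 below. Of the 26 identity genes 0 had intervals above 1 and 23 below, with a median log2 ratio of -1.14, and Plvap stood at 118 against 460 CPM. Gja4 had 4 UMIs in 123 cells (1.90 CPM, 0.52 to 4.86) and 288 in the 167 cells without Etv2 (131 CPM, 116 to 147). Dll4 stood at 4.74 against 46.8 CPM, Hey1 at 18.02 against 110 and Klf2 at 23.2 against 192. Of the 11 arterial-list genes, which here leave out the 4 that chose the sides, likewise 0 had intervals above 1 and 7 below, of 12 BMP-list genes 0 and 9, and of 16 matrix genes 0 and 14. Among all 8540 genes with 30 UMIs, 1200 intervals were above 1 and 1422 below.

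A few endothelial genes had overlapping intervals in cells with and without Etv2. The 3 identity genes not lower were Cldn5, at 449 CPM (421 to 479) against 419 (392 to 447), Egfl7, at 706 against 698, and Arhgef15, at 76.8 against 85.0, and outside that list Flt4 stood at 115 against 113. Kdr was lower, and stood at 336 (312 to 362) against 432 (405 to 460). The venous genes Nr2f2 and Nrp2 were higher with Etv2, at 148 and 240 against 85.0 and 95.5 CPM, and Aplnr, the apelin receptor gene, was lower, at 35.1 against 73.2. Twist1 and Krt18 had overlapping intervals, at 87.7 and 13.3 CPM with Etv2 and 72.8 and 17.7 without. Few other members of their lists differed. Of 13 mesenchyme genes Twist2 (9.48 against 1.36) and Prrx2 (74.9 against 36.8) had intervals above 1, and Hand2 (1.42 against 18.2) below. Of 8 epithelium genes Krt8 (19.4 against 8.19) had an interval above 1. Among all 8540 genes with 30 UMIs, 1200 intervals were above 1 and 1422 below. A count of 1 or 2 genes, here and below, is therefore not read as a result about the list. Of 8 pericyte genes 0 were above and 3 below, Abcc9, Tagln (10.4 against 68.2) and Acta2. Of 5 mesodermal core genes 1 was above and 0 below, and of 5 endoderm genes 0 were above and 1 below. Of 12 erythroid genes 0 were above and 5 below. Without the 1 cell over 1% haemoglobin, which held no Etv2, haemoglobin shares of UMIs were 0.0148% with Etv2 and 0.0130% without. The part of these genes in the differences was not tested, and doublet calls were 4 of 123 and 2 of 167. Of the 28 arterial-side cells 1 had at least 3 Etv2 UMIs, and of the 151 venous-side cells 81 did.

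**Figure D5:**
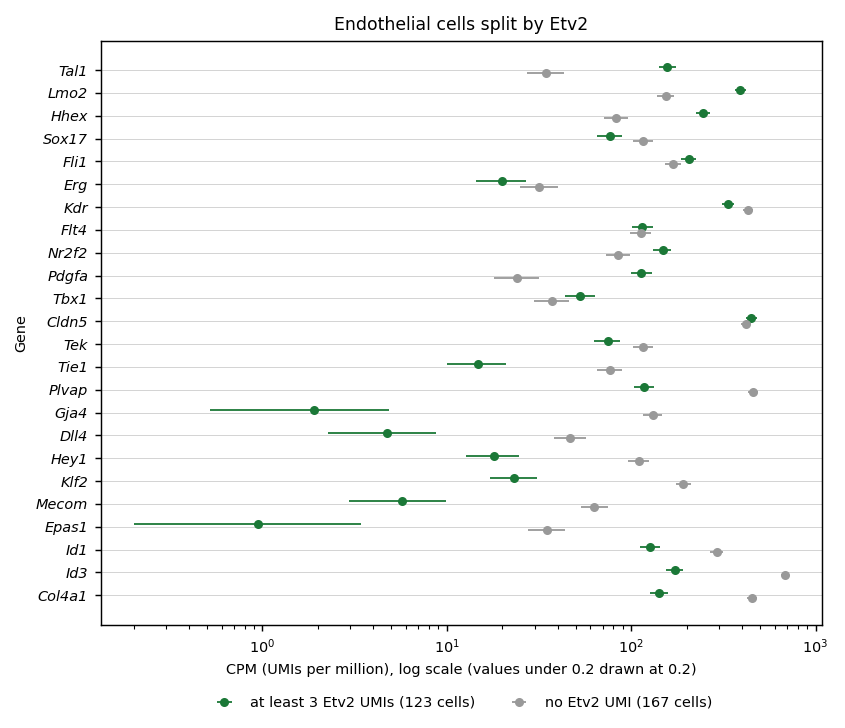
Levels of 24 genes (CPM, log scale, with exact 95% Poisson intervals) in endothelial cells with at least 3 Etv2 UMIs (123 cells) and with none (167 cells). Tal1, Lmo2, Hhex and Pdgfa lie to the right with Etv2, Cldn5 and Flt4 overlap, and Gja4, Dll4, Hey1, Klf2, Mecom and Epas1 lie to the left.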

How the data were processed

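Single cell 3' RNA-seq was made with 10x Genomics chemistry. The authors deposited raw UMI counts per gene and barcode, already limited to barcodes called as cells, without normalization, for the GRCm38 (mm10) build. The submitters' processing notes name Cell Ranger 2.0.0, and the deposited headers name 3.1.0 for E12.0 and 6.1.2 for E9.5. Barcodes with 200 to 5500 genes and at most 10% mitochondrial UMIs were kept: 1129 of 14293 were over the gene limit, 11 under the minimum and 418 over the mitochondrial limit. Counts were summed over the cells of a group and given as CPM.

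Mesenchymal cells had at least 3 UMIs of Prrx1, Prrx2 and Twist1, mesodermal core cells at least 3 of Tcf21, Msc, Myf5 and Lhx2, and epithelial cells at least 3 of Epcam, all without a rule gene. Mesenchymal and mesodermal core cells also held no Epcam UMI, and cells that met both definitions were counted as mesodermal core only. CPM have exact Poisson intervals, shares Clopper-Pearson intervals and ratios exact conditional binomial intervals, all 95%. Log2 ratios add 5 CPM, which understates low genes, and a count of 0 is read as up to 3 counts. Doublets were called, not removed (Scrublet in scanpy 1.11.5). The code ran under Python 3.11.15 with scipy 1.17.1 and was tested on simulated data. Any gene of 29 lists could be named, as well as the 20 highest and 10 lowest outside them, and 2 list genes are not reported here. The members and lists were chosen with earlier results of these data known. Windows came from RefSeq, gene positions from GENCODE on GRCm38. The gene listed as Ctgf is Ccn2.

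Alternatives changed the rule, the filters, the depth, the pseudocount, the share or the comparison cells.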

Additional observations from a re-analysis of the deposited data

Results flagged for a closer look

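In the E12.0 library, which was sorted for GFP-positive epithelium and used for no comparison here, 95 of 11355 kept cells held a UMI of Cdh5, Pecam1 or Emcn, 96 UMIs in all, and 0 cells reached a sum of 3. These UMIs were singled out because they lie in a library outside the comparisons. No background level was measured for them, so they are not read as expression, and their source was not tested.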

How the results depend on the processing

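The number of endothelial cells was 371 as chosen, 429 with a sum of at least 2, 300 with at least 5 and 463 with Kdr added to the sum. With cells thinned to 4000 UMIs, which also left out 10 endothelial and 1659 comparison cells that were too shallow, 872 genes were higher and 818 lower. The count at least 4-fold lower moved from 68 to 39 with a sum of at least 2, 41 with Kdr added, 43 after thinning, 45 against mesenchymal cells and 133 with 1 CPM added, where the count at least 4-fold higher was 376. Over 261 list genes and 12 alternatives, 3031 values kept direction and call, 78 lost the call (50 of them after thinning), 17 gained one and 6 changed sign. Those 6 log2 ratios were -0.10 for Tagln with a sum of at least 5 and, against mesenchymal cells, 0.0186 for Cldn7, 1.11 for Edn1, 0.19 for Lama5, 1.60 for Pdgfa and 0.65 for Slc2a3. The first changed the endothelial cells and the other 5 the comparison cells, and the cause was not tested further. Without cells over 1% haemoglobin (1 endothelial, 79 comparison) the globin genes Hba-x, Hbb-bh1 and Hbb-y, 3 list genes, lost their call, and without doublets 1. No paired analysis was possible because each stage had 1 library, and for the same reason no library could be left out. Depth limits low genes: a gene with no UMI in the endothelial cells could stand at up to 0.54 CPM.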
